A study of Mus musculus with 6 samples.

Results

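The genes described here are the 7 Cdk inhibitors of the Cip/Kip and INK4 families, Cdkn1a, Cdkn1b, Cdkn1c, Cdkn2a, Cdkn2b, Cdkn2c and Cdkn2d, together with Mtap, the neighbor of Cdkn2a on mouse chromosome 4. They are 8 of the 22369 genes measured by RNA-seq, taken by gene symbol. The group was chosen by measured values. Cdkn1a, Cdkn2a, Cdkn2b and Mtap were picked with their levels in these libraries known, so their values are given as a description and without a test. Cdkn1b, Cdkn1c, Cdkn2c and Cdkn2d complete the 2 families by name. Of these, Cdkn1b, Cdkn2c and Cdkn2d were tested, and Cdkn1c, which only Nrdc+/+ iMEF expressed above the filter on low values, is given as a description.

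RNA-seq was performed on 6 libraries of asynchronously growing immortalized mouse embryo fibroblasts (iMEF), a cell type from mouse embryos that keeps dividing in culture where primary cells stop. Nrdc-/-WT iMEF are Nrdc knockout cells infected with a lentivirus that expresses wild-type Nrdc (2 libraries). Nrdc-/- iMEF are Nrdc knockout cells (2 libraries) and Nrdc+/+ iMEF are wild type (2 libraries). All were labelled as embryonic fibroblasts of the C57BL/6 strain, and all were kept in the same low glucose medium with serum. The question was how loss and return of Nrdc, a metalloendopeptidase that also acts in the nucleus as a transcriptional coregulator, changed transcript levels. Each genotype is 1 immortalized line, and no Nrdc-/- library with an empty virus is among those used here, so infection and the return of Nrdc cannot be told apart. The methods call the replicates of the study biological, at 1 to 3 passages after infection, but no label gives each library its own culture, and p-values measure the spread between these libraries.

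Cdk inhibitors hold the cell cycle back in G1. INK4 proteins (Cdkn2a to Cdkn2d) bind Cdk4 and Cdk6 and keep them from D-type cyclins, and Cip/Kip proteins (Cdkn1a to Cdkn1c) bind complexes of cyclins with Cdk2 and other Cdks. Cdkn2a also encodes p19Arf from a first exon of its own and another reading frame, and p19Arf binds Mdm2 and so spares p53, which in turn activates Cdkn1a. In cultured mouse fibroblasts the Cdkn2a and Cdkn2b products accumulate with passage and bring about senescence, and loss of p19Arf or of p53 is a common route to an immortal line. Mtap, methylthioadenosine phosphorylase, salvages methionine and adenine from a by-product of polyamine synthesis and is often deleted together with CDKN2A in human tumors.

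Mtap, Cdkn2a and Cdkn2b lie side by side in 174 kb of chromosome 4 and were all low in Nrdc-/- iMEF, so their promoter windows are shown. The windows are those of RefSeq (GRCm38.p6), which run from 250 bases before to 50 bases after a transcription start. Each matched a single place in the NCBIM37 (mm9) assembly used by the authors, and these mm9 positions are Mtap chr4:88783024-88783323 on the plus strand, the p19Arf start of Cdkn2a chr4:88940474-88940773, the p16Ink4a start of Cdkn2a chr4:88928047-88928346 and Cdkn2b chr4:88956892-88957191, the last 3 on the minus strand. Capitals mark every match, on either strand, to 5 short promoter motifs whose letters are spelled out after the sequences.
Mtap: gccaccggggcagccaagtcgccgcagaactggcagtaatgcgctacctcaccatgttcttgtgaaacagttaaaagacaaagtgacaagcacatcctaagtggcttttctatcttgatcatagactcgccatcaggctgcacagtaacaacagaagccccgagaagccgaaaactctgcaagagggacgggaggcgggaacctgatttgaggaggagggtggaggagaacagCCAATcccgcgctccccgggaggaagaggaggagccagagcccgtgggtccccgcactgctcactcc
Cdkn2a p19Arf start: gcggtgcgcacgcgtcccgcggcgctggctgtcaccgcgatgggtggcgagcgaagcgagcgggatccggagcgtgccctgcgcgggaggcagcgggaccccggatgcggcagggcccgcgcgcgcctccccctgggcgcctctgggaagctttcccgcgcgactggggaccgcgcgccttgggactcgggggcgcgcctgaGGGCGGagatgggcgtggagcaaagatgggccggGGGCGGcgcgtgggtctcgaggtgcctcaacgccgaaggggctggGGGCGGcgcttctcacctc
Cdkn2a p16Ink4a start: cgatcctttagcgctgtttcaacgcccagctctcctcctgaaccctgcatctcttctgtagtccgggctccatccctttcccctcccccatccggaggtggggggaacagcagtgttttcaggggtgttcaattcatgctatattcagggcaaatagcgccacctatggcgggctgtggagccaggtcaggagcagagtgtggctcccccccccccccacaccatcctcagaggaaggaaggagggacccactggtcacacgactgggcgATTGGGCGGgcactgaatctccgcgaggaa
Cdkn2b: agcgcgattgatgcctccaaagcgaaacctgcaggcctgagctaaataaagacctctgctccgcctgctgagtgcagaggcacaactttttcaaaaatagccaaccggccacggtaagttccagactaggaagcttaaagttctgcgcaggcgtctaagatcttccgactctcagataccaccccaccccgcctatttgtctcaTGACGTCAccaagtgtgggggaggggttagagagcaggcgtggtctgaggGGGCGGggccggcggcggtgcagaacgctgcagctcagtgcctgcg
The GC box searched was GGGCGG, which 35.7% of the 32851 RefSeq windows of this length held. The p19Arf start held it 3 times and the p16Ink4a start and Cdkn2b once each. The 5 letters of the CCAAT box, found in 37.4% of windows, occurred once in Mtap and once in the p16Ink4a start, where they overlap the GC box within the same capitals. The cAMP response element, TGACGTCA, was found in 1.79% of windows and occurred once in Cdkn2b. The TATA box was searched as TATAAA and found in 13.6% of windows. The E-box was searched as CACGTG and found in 7.15% of them. None of the 4 windows held these last motifs, and no motif was shared by all 4. The windows differed in base composition as well. The p19Arf start had 45 CpG and 77% GC, the p16Ink4a start 12 CpG and 60.3% GC, Cdkn2b 18 CpG and 57.7% GC and Mtap 14 CpG and 57% GC, where the median of all windows was 7 CpG and 52.7% GC. These matches describe letters and say nothing of which factors bind there.

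The libraries held 16385565 to 19764315 reads over the listed genes. Levels are given as RPKM, reads scaled to gene length and mapped reads, and differences as log2 differences of RPKM + 0.25 with their standard error (SE), a scale that understates the change of low genes. A gene was called when limma gave a Benjamini-Hochberg adjusted p under 0.05 over the 11598 genes tested and a fold of at least 1.3. Nrdc itself (listed as Nrd1) was at 5.89 and 5.40 RPKM in Nrdc-/-WT iMEF, 1.53 and 1.51 RPKM in Nrdc-/- iMEF and 27.9 and 28.9 RPKM in Nrdc+/+ iMEF, lowest in the line labelled as knockout and above it, but below Nrdc+/+ iMEF, in the infected line. These are RNA levels. By immunoblotting and immunocytochemistry, the study reported similar Nrdc expression in Nrdc-/-WT and Nrdc+/+ iMEF. Fibroblast genes such as Col1a1, Fn1 and Vim were abundant in every line, and the 10 fibroblast markers summed to 5965 to 5994 RPKM in Nrdc-/-WT iMEF, 5232 to 5275 RPKM in Nrdc-/- iMEF and 3680 to 4110 RPKM in Nrdc+/+ iMEF. The defining markers Thy1 and Fap were at or near 0, at most 0.436 RPKM as the mean of a line. Epithelial, endothelial, muscle and fat markers summed to at most 3.24 RPKM in any library, and the blood markers to 6.69 to 11.2 RPKM, mostly Cd14, with Ptprc near 0. Whether these differences between the lines had a part in the results below was not tested. In bulk libraries, fewer cells of a type and less RNA per cell cannot be told apart.

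Cdkn2a, the most abundant of these genes in Nrdc-/-WT and Nrdc+/+ iMEF, was far lower in Nrdc-/- iMEF. Its level was 415 and 437 RPKM in Nrdc-/-WT iMEF, 5.78 and 5.75 RPKM in Nrdc-/- iMEF and 407 and 386 RPKM in Nrdc+/+ iMEF. Among all genes it ranked 101 in Nrdc-/-WT iMEF, 7311 in Nrdc-/- iMEF and 92 in Nrdc+/+ iMEF. Its reads per library were 10360 and 9544 in Nrdc-/-WT iMEF, 117 and 122 in Nrdc-/- iMEF and 9686 and 9324 in Nrdc+/+ iMEF. Both libraries of Nrdc-/- iMEF stood far below the other 4, which lay close to each other, Nrdc-/-WT just above Nrdc+/+ iMEF without overlap. The log2 difference was -6.04 ± 0.06 (SE, n = 2 each) for Nrdc-/- v.s. Nrdc+/+, 6.15 ± 0.06 for Nrdc-/-WT v.s. Nrdc-/- and 0.11 ± 0.06 for Nrdc-/-WT v.s. Nrdc+/+. These comparisons share libraries and are not independent. Pooled reads put Nrdc-/- iMEF at 1.46% of the Nrdc+/+ level, with an exact 95% interval of 1.28% to 1.65% that covers counting error only, as do all intervals of read ratios here.

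The table gives 1 value per gene, so the share of p16Ink4a and p19Arf in the Cdkn2a signal cannot be told apart. In the mm9 annotation (GENCODE) Cdkn2a spans chr4:88920377-88940557 on the minus strand. The last 2 exons, of 302 and 341 bases, are shared by both products. The first exon of p16Ink4a has 207 bases (chr4:88927890-88928096) and that of p19Arf up to 320 bases (chr4:88940238-88940557), and together the exons make up the 1170 bases used as the gene length. Strand was not stated for the counts, so reads of an overlapping gene on the other strand would be counted as well.

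Cdkn2b, which encodes p15Ink4b, the INK4 inhibitor induced by TGF-beta, was also far lower in Nrdc-/- iMEF and exceeded the Nrdc+/+ level in Nrdc-/-WT iMEF. It measured 70.7 and 75.4 RPKM in Nrdc-/-WT iMEF, 0.913 and 1.23 RPKM in Nrdc-/- iMEF and 36.2 and 36.7 RPKM in Nrdc+/+ iMEF. No libraries of different lines overlapped. The log2 difference was -4.81 ± 0.11 for Nrdc-/- v.s. Nrdc+/+, 5.80 ± 0.11 for Nrdc-/-WT v.s. Nrdc-/- and 1.00 ± 0.11 for Nrdc-/-WT v.s. Nrdc+/+ (SE, n = 2 each). By pooled reads (53 in Nrdc-/- and 2084 in Nrdc+/+ iMEF) Nrdc-/- iMEF held 2.94% of the Nrdc+/+ level (2.20% to 3.87%).

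Mtap, on the other side of Cdkn2a, showed the same order as Cdkn2a between Nrdc-/- iMEF and the other lines, but Nrdc-/-WT iMEF were below Nrdc+/+ iMEF. It measured 59.9 and 56.1 RPKM in Nrdc-/-WT iMEF, 0.752 and 1.16 RPKM in Nrdc-/- iMEF and 68.4 and 69.6 RPKM in Nrdc+/+ iMEF, without overlap between lines. The log2 difference was -5.86 ± 0.14 for Nrdc-/- v.s. Nrdc+/+, 5.61 ± 0.14 for Nrdc-/-WT v.s. Nrdc-/- and -0.25 ± 0.14 for Nrdc-/-WT v.s. Nrdc+/+ (SE, n = 2 each). By pooled reads (110 in Nrdc-/- and 9127 in Nrdc+/+ iMEF) Nrdc-/- iMEF held 1.40% of the Nrdc+/+ level (1.15% to 1.68%). Cdkn2a exceeded Mtap 6.93-fold and 7.79-fold in the Nrdc-/-WT libraries, 7.68-fold and 4.95-fold in the Nrdc-/- libraries and 5.95-fold and 5.54-fold in the Nrdc+/+ libraries. The ratios in Nrdc-/- iMEF lay within or near the range of the other lines.

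**Figure D1:**
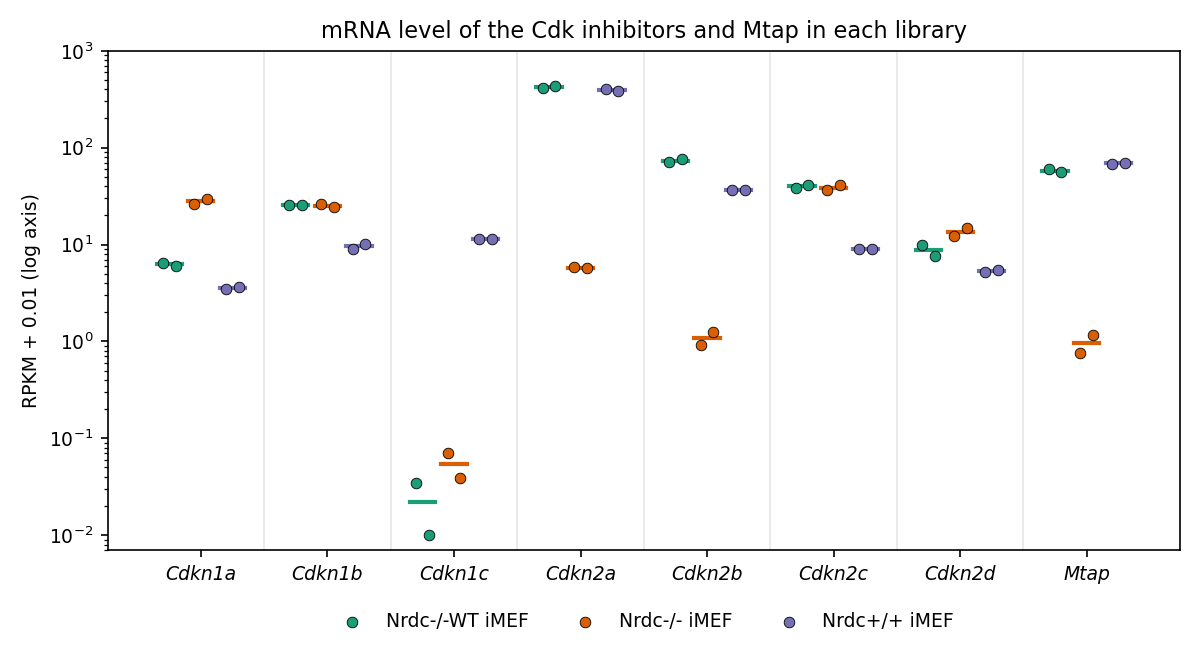
RPKM + 0.01 on a log axis of each library (points) and the mean of each line (bars) for the 8 genes, in the order Nrdc-/-WT, Nrdc-/-, Nrdc+/+ iMEF. Cdkn2a, Cdkn2b and Mtap are low in Nrdc-/- iMEF, Cdkn1a is high there, and Cdkn1b, Cdkn1c and Cdkn2c set Nrdc+/+ iMEF apart from the other lines.

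Genes as low in Nrdc-/- iMEF as these 3 were uncommon, and a like return in Nrdc-/-WT iMEF more so. Of 7631 genes with at least 5 RPKM in Nrdc+/+ iMEF, 111 (1.45%) were under 3% of the Nrdc+/+ level in Nrdc-/- iMEF. Only 10 (0.131%) of the 7631 were also at 50% or more of the Nrdc+/+ level in Nrdc-/-WT iMEF. Both limits were set after the values were seen, so Cdkn2a, Cdkn2b and Mtap met them by choice. Among the other 7 were Ano1, Cachd1, Echdc2 and Smpdl3b. In chromosome order of these 7631 genes alone, with genes of lower level skipped, the 111 genes formed 10 runs of 2 and 1 run of 3. The run of 3 was Mtap, Cdkn2a and Cdkn2b, which met the limits by choice, so these counts of runs are a description. In 0 of the 10 runs of 2 were both genes back at 50% or more in Nrdc-/-WT iMEF.

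The genes around the locus were described by position alone, as all 51 other genes that start within 3 Mb of the Cdkn2a start. Only 10 of them passed the filter of 0.5 RPKM, and none was nearly as low in Nrdc-/- iMEF as Mtap, Cdkn2a and Cdkn2b. In Nrdc-/- v.s. Nrdc+/+, 1 of the 10 rose and 6 fell (over all genes, 32% were called higher and 30.2% lower), with log2 differences of -1.56 to 0.97. In Nrdc-/-WT v.s. Nrdc-/-, 7 rose and 0 fell (20.5% and 22.7% over all genes), with log2 differences of -0.01 to 1.25. In Nrdc-/-WT v.s. Nrdc+/+, 3 rose and 2 fell (29.9% and 30.6% over all genes).

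Klhl9, an adaptor of a Cul3 ubiquitin ligase, was the nearest tested gene on the Mtap side, 556 kb from Cdkn2a. It measured 27.3 and 26.4 RPKM in Nrdc-/-WT iMEF, 17.5 and 16.3 RPKM in Nrdc-/- iMEF and 16.9 and 19.6 RPKM in Nrdc+/+ iMEF. The Nrdc-/- and Nrdc+/+ libraries overlapped (log2 difference -0.10 ± 0.08, limma adjusted p = 0.30), and Nrdc-/-WT iMEF lay above both (0.66 ± 0.08 v.s. Nrdc-/- and 0.56 ± 0.08 v.s. Nrdc+/+). Ptplad2, a dehydratase of fatty acid elongation 878 kb away, was the gene that rose in Nrdc-/- v.s. Nrdc+/+ (0.97 ± 0.12), and it rose further in Nrdc-/-WT v.s. Nrdc-/- (1.25 ± 0.12). Plin2, the coat protein of lipid droplets, fell most in Nrdc-/- v.s. Nrdc+/+ (-1.56 ± 0.07) and rose by 1.18 ± 0.07 in Nrdc-/-WT v.s. Nrdc-/-. Mllt3, a subunit of a transcription elongation complex, averaged 7.47 RPKM in Nrdc-/-WT, 3.24 RPKM in Nrdc-/- and 8.07 RPKM in Nrdc+/+ iMEF and was called in both comparisons with Nrdc-/- iMEF (-1.26 ± 0.09 and 1.15 ± 0.09). Haus6, an augmin subunit of the spindle, moved likewise (-1.39 ± 0.08 and 0.85 ± 0.08). Dennd4c (-0.58 ± 0.08) and BC057079 (-0.91 ± 0.10) fell in Nrdc-/- v.s. Nrdc+/+ and were not called in Nrdc-/-WT v.s. Nrdc-/- (0.25 ± 0.08 and -0.01 ± 0.10). The ribosomal protein gene Rps6 was not called in Nrdc-/- v.s. Nrdc+/+ (0.03 ± 0.10) and rose in Nrdc-/-WT v.s. Nrdc-/- (0.39 ± 0.10), and Rraga, a GTPase that signals amino acids to mTORC1, was not called in any comparison (-0.14 to 0.06).

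On the Cdkn2b side, 2900 kb separate the end of Cdkn2b from Gm12666, the next gene that passed the filter. Gm12666 averaged 18.2 RPKM in Nrdc-/-WT, 10.7 RPKM in Nrdc-/- and 18.6 RPKM in Nrdc+/+ iMEF and was called in both comparisons with Nrdc-/- iMEF (-0.77 ± 0.13 and 0.75 ± 0.13). Between them, Dmrta1 and Zfp352 had 2 reads and 1 read in all 6 libraries together. Elavl2, an RNA-binding protein of neurons 1997 kb from Cdkn2a, is named after its values were seen. It had 90 and 83 reads in Nrdc-/-WT iMEF, 3 and 2 reads in Nrdc-/- iMEF and 28 and 24 reads in Nrdc+/+ iMEF. It stayed below the filter, and pooled reads put Nrdc-/- iMEF at 11.1% of the Nrdc+/+ level (3.47% to 27.7%). Between Klhl9 and Mtap lie the starts of 23 genes, among them type I interferons without reads. The 13 of them with at least 10 reads belong to a family of similar copies, whose reads cannot be assigned with certainty, and summed to 2.37 RPKM in Nrdc-/-WT, 2.60 RPKM in Nrdc-/- and 2.62 RPKM in Nrdc+/+ iMEF.

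**Figure D2:**
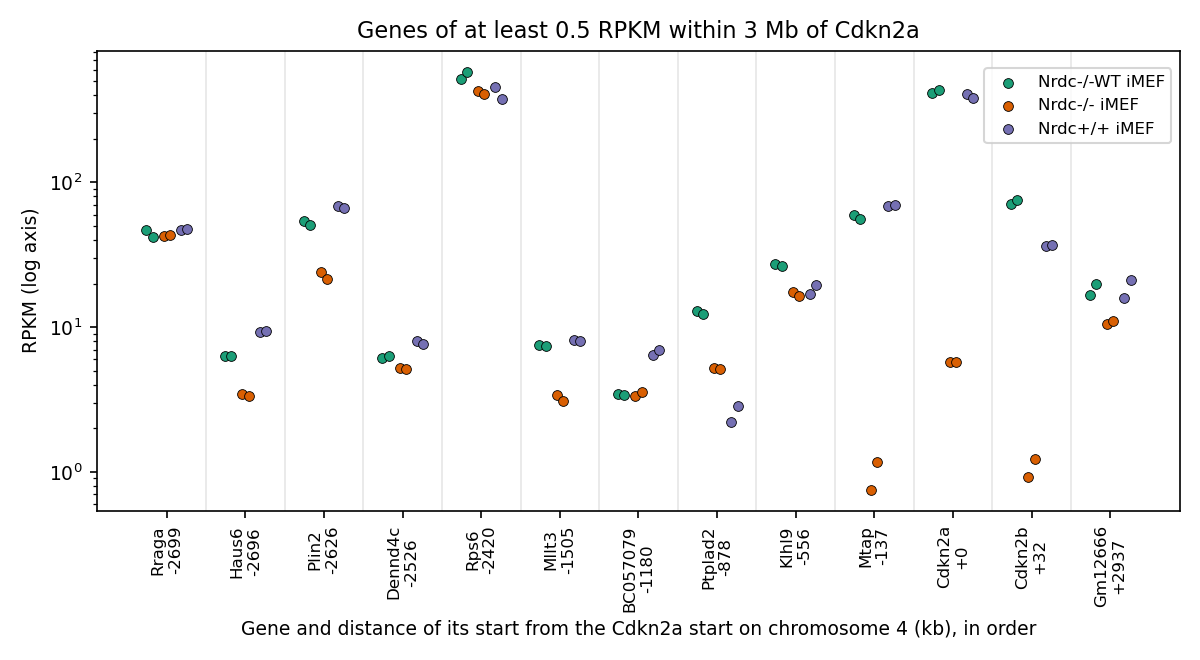
RPKM of each library on a log axis for the genes that passed the filter within 3 Mb of Cdkn2a, in the order of their position, with the distance of each start from the Cdkn2a start in kb. The points of Nrdc-/- iMEF drop far below the other lines at Mtap, Cdkn2a and Cdkn2b and stay within a few-fold of them at Klhl9 and Gm12666 on either side.

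On chromosome 4, this window included, more genes fell than rose in Nrdc-/- v.s. Nrdc+/+. Of its 705 tested genes other than the members, 46.4% fell and 16.9% rose in Nrdc-/- v.s. Nrdc+/+ (30.2% and 32% over all genes), with a median log2 difference of -0.33. Some of them, such as Tusc1 and 1700009N14Rik, passed the filter through Nrdc+/+ iMEF alone and could only be called lower against that line. The shares over all genes hold such genes as well. In Nrdc-/-WT v.s. Nrdc-/-, 42.1% rose and 15.9% fell (20.5% and 22.7% over all genes), with a median of 0.28. The medians of the 20 chromosomes ran from -0.43 to 0.35 in Nrdc-/- v.s. Nrdc+/+, where 4 chromosomes were lower than chromosome 4, and from -0.38 to 0.28 in Nrdc-/-WT v.s. Nrdc-/-, where chromosome 4 was the highest. In Nrdc-/-WT v.s. Nrdc+/+ its median was -0.12. The shift was not uniform along the chromosome. The medians of 10 Mb stretches, by distance from Cdkn2a, ran from -0.84 (0 to 10 Mb) to 0.28 (-90 to -80 Mb) in Nrdc-/- v.s. Nrdc+/+. In Nrdc-/-WT v.s. Nrdc-/- they ran from -0.34 (60 to 70 Mb) to 0.56 (-10 to 0 Mb). Of the 7 genes other than Mtap, Cdkn2a and Cdkn2b that were under 3% in Nrdc-/- iMEF and back in Nrdc-/-WT iMEF, 5 lie on this chromosome, which holds 490 of the 7624 genes considered apart from the members (6.43%). The differences of Mtap, Cdkn2a and Cdkn2b were much larger than the chromosome median in both directions, and the part of the wider shift in their values was not tested. RNA levels do not show whether the DNA of this region is the same in the 3 lines, and this was not analysed here.

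**Figure D3:**
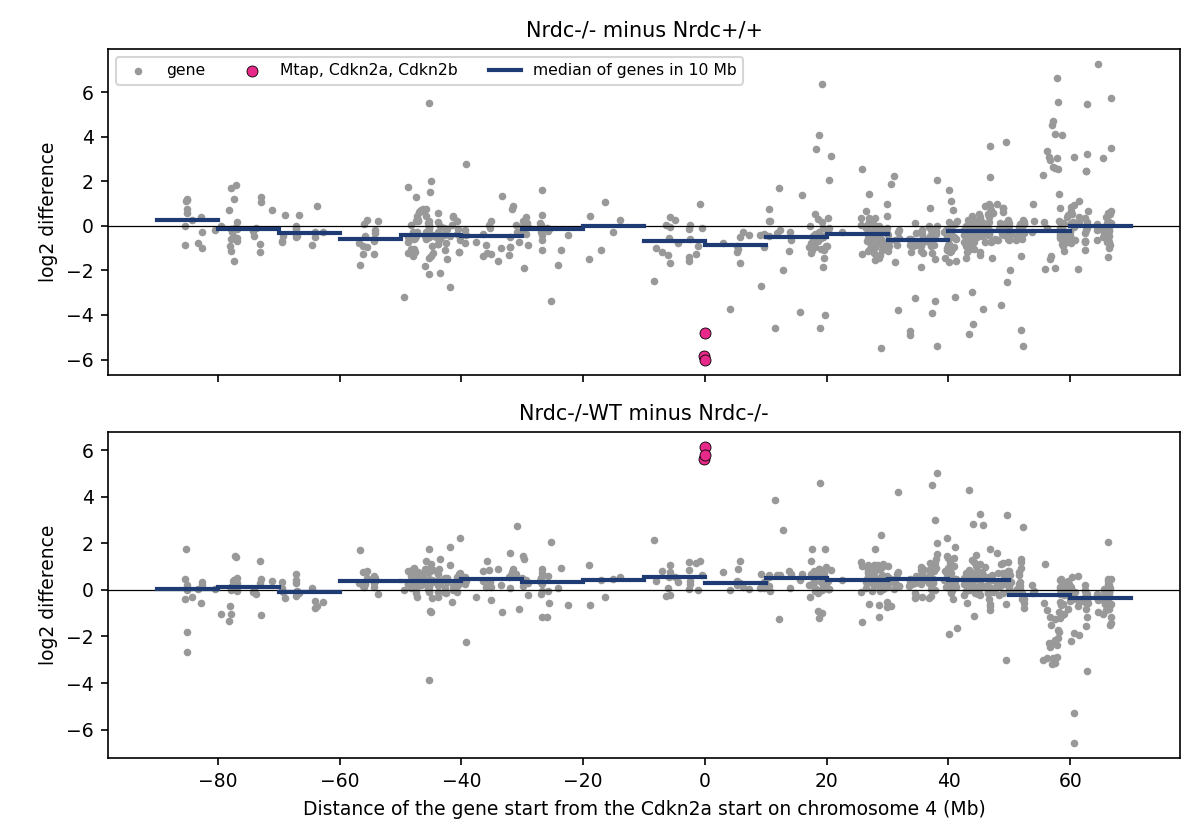
log2 differences of RPKM + 0.25 of the tested genes of chromosome 4 against the distance of their start from the Cdkn2a start in Mb, for Nrdc-/- minus Nrdc+/+ (top) and Nrdc-/-WT minus Nrdc-/- (bottom), with the median of the genes other than the members in each 10 Mb as a bar. Mtap, Cdkn2a and Cdkn2b lie far outside their neighbors, between -4.81 and -6.04 in the upper panel and between 5.61 and 6.15 in the lower.

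Among the INK4 genes, Cdkn2c and Cdkn2d were not low in Nrdc-/- iMEF. Cdkn2c encodes p18Ink4c and lies on chromosome 4 as well, 20413 kb from Cdkn2a. Nrdc itself lies on this chromosome close to Cdkn2c, 19.75 Mb from the Cdkn2a start. Whether the DNA around Nrdc differs between the lines in other ways was not tested. Cdkn2c measured 38.6 and 41.6 RPKM in Nrdc-/-WT iMEF, 36.3 and 41.0 RPKM in Nrdc-/- iMEF and 9.07 and 8.87 RPKM in Nrdc+/+ iMEF. Nrdc-/-WT and Nrdc-/- iMEF overlapped, and both stood above Nrdc+/+ iMEF. It rose by 2.07 ± 0.08 on the log2 scale in Nrdc-/- v.s. Nrdc+/+ (adjusted p = 1.01e-07 by limma) and by 2.13 ± 0.08 in Nrdc-/-WT v.s. Nrdc+/+ (limma adjusted p = 1.2e-07). Nrdc-/-WT v.s. Nrdc-/- gave 0.05 ± 0.08, with a 95% interval of -0.12 to 0.23 (adjusted p = 0.567 by limma).

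Cdkn2d, which encodes p19Ink4d, was highest in Nrdc-/- iMEF and lowest in Nrdc+/+ iMEF. It measured 9.82 and 7.67 RPKM in Nrdc-/-WT iMEF, 12.2 and 14.6 RPKM in Nrdc-/- iMEF and 5.18 and 5.41 RPKM in Nrdc+/+ iMEF, without overlap between lines. It rose by 1.3 ± 0.13 in Nrdc-/- v.s. Nrdc+/+ (limma adjusted p = 3.64e-05) and by 0.69 ± 0.13 in Nrdc-/-WT v.s. Nrdc+/+ (adjusted p = 0.00158 by limma). In Nrdc-/-WT v.s. Nrdc-/- it fell by 0.61 ± 0.13 on the log2 scale (limma adjusted p = 0.00456), a call that was lost without replicate 2 of Nrdc-/- iMEF (limma adjusted p = 0.0517, with a log2 difference of -0.48).

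Of the Cip/Kip genes, Cdkn1a, which encodes p21 and is the classical p53 target, was the only one highest in Nrdc-/- iMEF. It measured 6.48 and 5.98 RPKM in Nrdc-/-WT iMEF, 26.4 and 29.7 RPKM in Nrdc-/- iMEF and 3.42 and 3.59 RPKM in Nrdc+/+ iMEF. The lines did not overlap, and Nrdc-/-WT iMEF lay nearer to Nrdc+/+ than to Nrdc-/- iMEF. The log2 difference was 2.91 ± 0.09 for Nrdc-/- v.s. Nrdc+/+, -2.13 ± 0.09 for Nrdc-/-WT v.s. Nrdc-/- and 0.78 ± 0.09 for Nrdc-/-WT v.s. Nrdc+/+ (SE, n = 2 each). By pooled reads Nrdc-/- iMEF held 8.0-fold the level of Nrdc+/+ iMEF (7.11 to 9.02).

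Cdkn1b, which encodes p27, did not follow Cdkn1a. It measured 25.5 and 25.9 RPKM in Nrdc-/-WT iMEF, 26.1 and 24.1 RPKM in Nrdc-/- iMEF and 9.05 and 10.1 RPKM in Nrdc+/+ iMEF. As with Cdkn2c, Nrdc-/-WT and Nrdc-/- iMEF overlapped and Nrdc+/+ iMEF were lower. It rose by 1.37 ± 0.08 in Nrdc-/- v.s. Nrdc+/+ (adjusted p = 1.05e-06 by limma) and by 1.40 ± 0.08 in Nrdc-/-WT v.s. Nrdc+/+ (limma adjusted p = 1.07e-06). Nrdc-/-WT v.s. Nrdc-/- gave 0.03 ± 0.08, with a 95% interval of -0.14 to 0.21 (adjusted p = 0.733 by limma).

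Cdkn1c, an imprinted gene of chromosome 7 that encodes p57, was expressed in Nrdc+/+ iMEF and almost without reads in the other lines. It measured 0.024 and 0 RPKM in Nrdc-/-WT iMEF, 0.060 and 0.029 RPKM in Nrdc-/- iMEF and 11.3 and 11.5 RPKM in Nrdc+/+ iMEF. These values rest on 1 and 0 reads in Nrdc-/-WT iMEF, 2 and 1 reads in Nrdc-/- iMEF and 443 and 457 reads in Nrdc+/+ iMEF, so the gene passed the filter through Nrdc+/+ iMEF alone. A gene kept in this way had to be lower in the other lines, so no test is given, and its fitted log2 differences, -5.30 ± 0.15 for Nrdc-/- v.s. Nrdc+/+ and -5.47 ± 0.15 for Nrdc-/-WT v.s. Nrdc+/+, depend on the pseudocount. The ratio of pooled reads was 0.386% in Nrdc-/- v.s. Nrdc+/+ (0.0794% to 1.13%) and 0.114% in Nrdc-/-WT v.s. Nrdc+/+ (0.00288% to 0.637%). With 1 read in Nrdc-/-WT and 3 reads in Nrdc-/- iMEF, a difference between these lines was not detectable at this depth.

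Counted together, Cdkn1b, Cdkn2c and Cdkn2d were all called higher in Nrdc-/- v.s. Nrdc+/+, where 62.1% of all genes were called and 32% were called higher. In Nrdc-/-WT v.s. Nrdc+/+ the 3 were called higher as well, where 60.4% of all genes were called and 29.9% were called higher. In Nrdc-/-WT v.s. Nrdc-/- only Cdkn2d was called, lower, where 43.2% of all genes were called and 22.7% were called lower. With such shares called among all genes, these counts do not set the inhibitors apart.

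The order of the inhibitors within a line differed accordingly. In Nrdc-/-WT iMEF, levels ran from Cdkn2a through Cdkn2b, Cdkn2c, Cdkn1b, Cdkn2d and Cdkn1a to Cdkn1c, without overlap of neighbors in this order. In Nrdc-/- iMEF the order was Cdkn2c, Cdkn1a, Cdkn1b, Cdkn2d, Cdkn2a, Cdkn2b and Cdkn1c, again without overlap. In Nrdc+/+ iMEF it was Cdkn2a, Cdkn2b, Cdkn1c, Cdkn1b, Cdkn2c, Cdkn2d and Cdkn1a, where Cdkn1b and Cdkn2c overlapped. The 7 inhibitors summed to 567 and 594 RPKM in Nrdc-/-WT iMEF, 108 and 116 RPKM in Nrdc-/- iMEF and 481 and 462 RPKM in Nrdc+/+ iMEF. Cdkn2a made up 73.3% and 73.6% of this sum in Nrdc-/-WT iMEF, 5.36% and 4.94% in Nrdc-/- iMEF and 84.6% and 83.5% in Nrdc+/+ iMEF. Without Cdkn2a and Cdkn2b, the other 5 summed to 80.4 and 81.1 RPKM in Nrdc-/-WT iMEF, 101 and 109 RPKM in Nrdc-/- iMEF and 38.0 and 39.4 RPKM in Nrdc+/+ iMEF, so that Nrdc-/- iMEF then stood highest. The sum of the 3 Cip/Kip genes was likewise highest in Nrdc-/- iMEF, at 52.6 and 53.8 RPKM, against 23.7 and 25.1 RPKM in Nrdc+/+ iMEF.

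**Figure D4:**
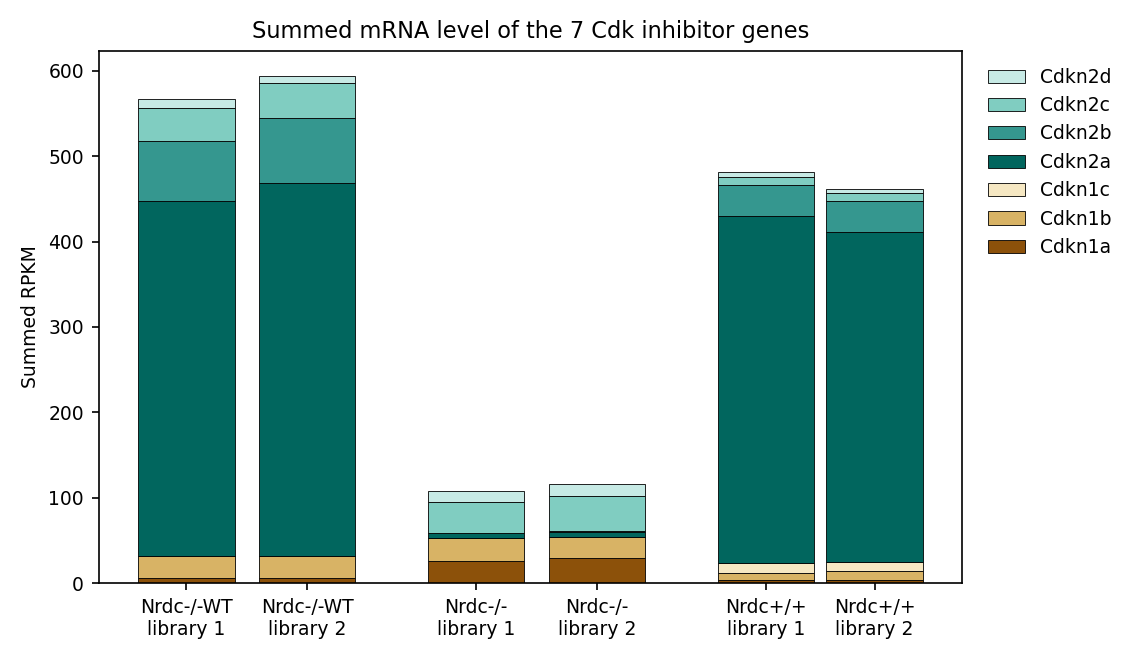
Summed RPKM of the 7 Cdk inhibitor genes in each library, stacked by gene, with Cip/Kip genes in brown and INK4 genes in green. Cdkn2a fills most of the bars of Nrdc-/-WT and Nrdc+/+ iMEF and a thin band in those of Nrdc-/- iMEF, whose sums are 108 and 116 RPKM.

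Most of the cyclins and kinases that these inhibitors bind were called lower in Nrdc-/- v.s. Nrdc+/+. Of 9 tested genes of 10, 0 rose and 6 fell in this comparison, where 32% of all genes rose and 30.2% fell, with a median log2 difference of -0.66 against 0.01 over all genes tested. Ccnd1, the D-type cyclin induced by mitogens, averaged 45.6 RPKM in Nrdc-/-WT, 34.0 RPKM in Nrdc-/- and 198 RPKM in Nrdc+/+ iMEF. It fell in Nrdc-/- v.s. Nrdc+/+ (-2.53 ± 0.06) and rose in Nrdc-/-WT v.s. Nrdc-/- (0.42 ± 0.06) but was still called lower in Nrdc-/-WT v.s. Nrdc+/+ (-2.11 ± 0.06). Cdk4, the partner of D-type cyclins that INK4 proteins block, fell in Nrdc-/- v.s. Nrdc+/+ (-0.66 ± 0.06) and was not called in Nrdc-/-WT v.s. Nrdc-/- (-0.12 ± 0.06). Ccnd3 rose in Nrdc-/-WT v.s. Nrdc-/- (0.46 ± 0.11), and Ccna2, the cyclin of S phase, was not called in any comparison (0.15 to 0.33). In Nrdc-/-WT v.s. Nrdc-/- 2 genes of this list rose and 0 fell (median 0.14), where 20.5% of all genes rose and 22.7% fell. In Nrdc-/-WT v.s. Nrdc+/+ 1 rose and 6 fell (median -0.71), where 29.9% of all genes rose and 30.6% fell. The counts of the other lists are given beside these shares, and none is a test of a list.

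Pocket proteins and E2F factors, which the kinases act on, moved both ways. Of 13 tested genes, 5 rose and 6 fell in Nrdc-/- v.s. Nrdc+/+ (median -0.23, with 32% up and 30.2% down over all genes), 2 rose and 5 fell in Nrdc-/-WT v.s. Nrdc-/- (median -0.22, with 20.5% and 22.7%) and 1 rose and 8 fell in Nrdc-/-WT v.s. Nrdc+/+ (median -0.63, with 29.9% and 30.6%). Rb1, the retinoblastoma protein, averaged 2.50 RPKM in Nrdc-/-WT, 5.43 RPKM in Nrdc-/- and 2.12 RPKM in Nrdc+/+ iMEF, with a log2 difference of 1.26 ± 0.11 for Nrdc-/- v.s. Nrdc+/+ and -1.04 ± 0.11 for Nrdc-/-WT v.s. Nrdc-/-. Its relative Rbl2 (p130), found in resting cells, rose in Nrdc-/- v.s. Nrdc+/+ (1.74 ± 0.08) and in Nrdc-/-WT v.s. Nrdc+/+ (2.07 ± 0.08) and was not called between the Nrdc-/-WT and Nrdc-/- lines (0.33 ± 0.08). E2f6, a repressor of the E2F family, fell in both comparisons with Nrdc+/+ iMEF (-1.58 ± 0.13 and -1.96 ± 0.13).

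Trp53 itself, which encodes p53, was not called in any comparison, with averages of 46.9 RPKM in Nrdc-/-WT, 41.2 RPKM in Nrdc-/- and 48.2 RPKM in Nrdc+/+ iMEF. Of the 22 tested genes of p53, its Mdm regulators and its targets other than Cdkn1a, 9 rose and 6 fell in Nrdc-/- v.s. Nrdc+/+ (median 0.05, with 32% up and 30.2% down over all genes), 0 rose and 9 fell in Nrdc-/-WT v.s. Nrdc-/- (median -0.36, with 20.5% and 22.7%) and 6 rose and 10 fell in Nrdc-/-WT v.s. Nrdc+/+ (median -0.20, with 29.9% and 30.6%). Trp53inp1, a stress protein that p53 induces, averaged 2.86 RPKM in Nrdc-/-WT, 6.10 RPKM in Nrdc-/- and 1.70 RPKM in Nrdc+/+ iMEF, the order seen for Cdkn1a (1.71 ± 0.16 for Nrdc-/- v.s. Nrdc+/+ and -1.02 ± 0.16 for Nrdc-/-WT v.s. Nrdc-/-). Others did not. Perp, a desmosome protein, rose in Nrdc-/- v.s. Nrdc+/+ (3.24 ± 0.07) and was not called in Nrdc-/-WT v.s. Nrdc-/- (-0.20 ± 0.07). Plk2 fell in Nrdc-/- v.s. Nrdc+/+ (-2.40 ± 0.07), and Pmaip1 (Noxa), a trigger of apoptosis, averaged 0.134 RPKM in Nrdc-/-WT iMEF, had no read in Nrdc-/- iMEF and averaged 6.30 RPKM in Nrdc+/+ iMEF. Pmaip1 passed the filter through Nrdc+/+ iMEF alone, so in the counts above it could only be called lower against that line.

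Polycomb proteins repress the Cdkn2a locus in growing cells. Of 17 tested genes of 18, 9 rose and 3 fell in Nrdc-/- v.s. Nrdc+/+ (median 0.39, with 32% up and 30.2% down over all genes), 1 rose and 4 fell in Nrdc-/-WT v.s. Nrdc-/- (median -0.20, with 20.5% and 22.7%) and 6 rose and 4 fell in Nrdc-/-WT v.s. Nrdc+/+ (median 0.02, with 29.9% and 30.6%). Bmi1, whose loss releases Cdkn2a in mouse fibroblasts, averaged 25.0 RPKM in Nrdc-/-WT, 46.1 RPKM in Nrdc-/- and 25.7 RPKM in Nrdc+/+ iMEF. It rose in Nrdc-/- v.s. Nrdc+/+ (0.84 ± 0.07) and fell by 0.88 ± 0.07 in Nrdc-/-WT v.s. Nrdc-/-. Ezh1, a methyltransferase of histone H3, rose in Nrdc-/- v.s. Nrdc+/+ (1.94 ± 0.08), its relative Ezh2 fell (-0.96 ± 0.07), and neither was called in Nrdc-/-WT v.s. Nrdc-/- (-0.20 ± 0.08 and 0.02 ± 0.07). Phc2 fell in Nrdc-/- v.s. Nrdc+/+ (-1.45 ± 0.08) and rose in Nrdc-/-WT v.s. Nrdc-/- (0.80 ± 0.08). Suz12 was not called in Nrdc-/- v.s. Nrdc+/+ (-0.04 ± 0.10) and fell by 0.52 ± 0.10 in Nrdc-/-WT v.s. Nrdc-/-.

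Other regulators of Cdkn2a and Cdkn2b had 1 of 12 tested genes up and 6 down in Nrdc-/- v.s. Nrdc+/+ (median -0.32, with 32% up and 30.2% down over all genes), 3 up and 2 down in Nrdc-/-WT v.s. Nrdc-/- (median -0.13, with 20.5% and 22.7%) and 3 up and 6 down in Nrdc-/-WT v.s. Nrdc+/+ (median -0.38, with 29.9% and 30.6%). Twist1, a repressor of the locus, averaged 32.0 RPKM in Nrdc-/-WT, 14.1 RPKM in Nrdc-/- and 19.6 RPKM in Nrdc+/+ iMEF and rose in Nrdc-/-WT v.s. Nrdc-/- (1.17 ± 0.07). Id1, an inhibitor of Ets activity at p16Ink4a, rose in Nrdc-/- v.s. Nrdc+/+ (0.87 ± 0.14) and again in Nrdc-/-WT v.s. Nrdc-/- (0.91 ± 0.14). Myc, which induces p19Arf and represses Cdkn2b, fell in Nrdc-/- v.s. Nrdc+/+ (-1.32 ± 0.06) and was not called in Nrdc-/-WT v.s. Nrdc-/- (0.14 ± 0.06). Tbx3, a repressor of p19Arf, averaged 4.01 RPKM in Nrdc+/+ iMEF and was at or near 0 in the other lines. It passed the filter through Nrdc+/+ iMEF alone, so in the counts above it could only be called lower against that line.

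Among 5 regulators of Cip/Kip transcription, 3 rose and 0 fell in Nrdc-/- v.s. Nrdc+/+ (32% and 30.2% over all genes), 0 rose and 2 fell in Nrdc-/-WT v.s. Nrdc-/- (20.5% and 22.7%) and 2 rose and 0 fell in Nrdc-/-WT v.s. Nrdc+/+ (29.9% and 30.6%). Klf4, an activator of Cdkn1a, averaged 11.6 RPKM in Nrdc-/-WT, 22.9 RPKM in Nrdc-/- and 8.92 RPKM in Nrdc+/+ iMEF (1.34 ± 0.08 for Nrdc-/- v.s. Nrdc+/+ and -0.97 ± 0.08 for Nrdc-/-WT v.s. Nrdc-/-). Foxo1, an activator of Cdkn1b, rose in Nrdc-/- v.s. Nrdc+/+ (1.48 ± 0.11) and fell by 0.41 ± 0.11 in Nrdc-/-WT v.s. Nrdc-/-. Foxo4 rose in Nrdc-/- v.s. Nrdc+/+ (0.38 ± 0.09), and Foxo3 and Sp1 were not called in any comparison. Ubiquitin ligases that degrade Cip/Kip proteins had 0 genes up and 7 down of 11 in Nrdc-/- v.s. Nrdc+/+ (median -0.55), 2 up and 0 down in Nrdc-/-WT v.s. Nrdc-/- and 1 up and 5 down in Nrdc-/-WT v.s. Nrdc+/+, beside the same shares over all genes. Skp2, which marks p27 for degradation, averaged 9.85 RPKM in Nrdc-/-WT, 6.14 RPKM in Nrdc-/- and 10.5 RPKM in Nrdc+/+ iMEF (-0.74 ± 0.08 for Nrdc-/- v.s. Nrdc+/+ and 0.66 ± 0.08 for Nrdc-/-WT v.s. Nrdc-/-). The scaffold gene Cul4b moved likewise (-1.64 ± 0.06 and 0.63 ± 0.06), and Ddb1, its adaptor, fell in Nrdc-/- v.s. Nrdc+/+ (-0.59 ± 0.06).

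In the pathway of Mtap, 4 of 13 tested genes rose and 6 fell in Nrdc-/- v.s. Nrdc+/+ (median -0.34, with 32% up and 30.2% down over all genes), 0 rose and 7 fell in Nrdc-/-WT v.s. Nrdc-/- (median -0.53, with 20.5% and 22.7%) and 4 rose and 9 fell in Nrdc-/-WT v.s. Nrdc+/+ (median -0.68, with 29.9% and 30.6%). Odc1, the first enzyme of polyamine synthesis, averaged 38.3 RPKM in Nrdc-/-WT, 61.8 RPKM in Nrdc-/- and 124 RPKM in Nrdc+/+ iMEF. It fell in each of the 3 comparisons (-1.0 ± 0.06 for Nrdc-/- v.s. Nrdc+/+, -0.69 ± 0.06 for Nrdc-/-WT v.s. Nrdc-/- and -1.69 ± 0.06 for Nrdc-/-WT v.s. Nrdc+/+). Sms, spermine synthase, whose by-product Mtap salvages, rose in Nrdc-/- v.s. Nrdc+/+ (1.98 ± 0.06) and fell by 0.80 ± 0.06 in Nrdc-/-WT v.s. Nrdc-/-. Srm, spermidine synthase, was not called in Nrdc-/- v.s. Nrdc+/+ (-0.34 ± 0.09) and fell by 1.05 ± 0.09 in Nrdc-/-WT v.s. Nrdc-/-. Mat2a, which makes the methyl donor of the pathway, fell by 0.53 ± 0.07 in Nrdc-/-WT v.s. Nrdc-/-. None of these approached the change of Mtap itself.

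**Figure D5:**
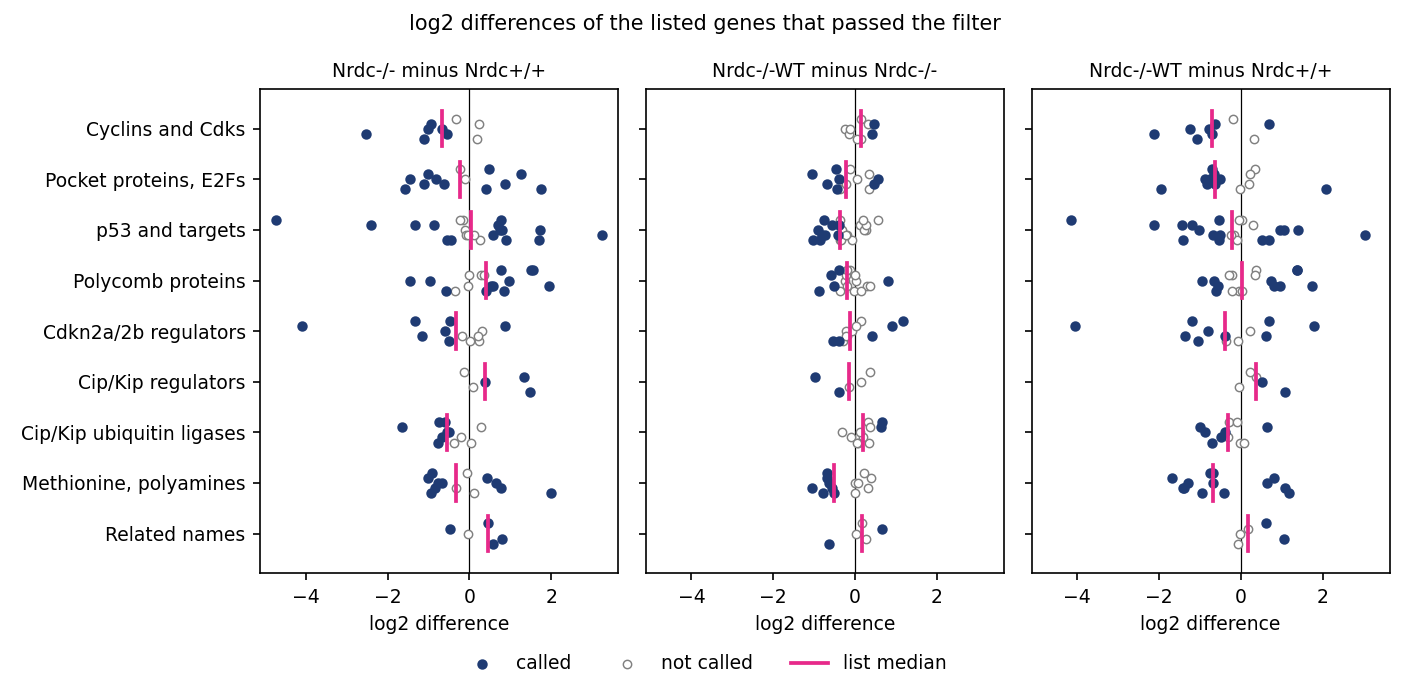
log2 differences of RPKM + 0.25 of the listed genes that passed the filter, 1 point per gene, for the 3 comparisons, with called genes filled and the median of each list as a bar. The medians of Nrdc-/- minus Nrdc+/+ run from -0.66 for cyclins and Cdks to 0.39 for Polycomb proteins among the lists of more than 5 genes.

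Of the 5 genes with related names that belong to neither family, Cdkn2aip, a partner of p19Arf, was not called in any comparison (-0.04 to 0.02). Cdkn3, a phosphatase of Cdk2, rose in Nrdc-/- v.s. Nrdc+/+ (0.45 ± 0.11), as did Cdk2ap1 (0.58 ± 0.09) and Cdk2ap2 (0.79 ± 0.12), and Cdkn2aipnl fell (-0.48 ± 0.09).

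The genes whose log2 levels ran most like those of Cdkn2a over the 6 libraries, among the 7913 genes that averaged 5 RPKM or more, were Akap12, a scaffold of protein kinase A (Pearson r = 0.9994), Echdc2 (0.9991), Tmem176b (0.9989), Cyr61, a matrix-associated signaling protein (0.9988), and Fam43a (0.9985). Akap12 averaged 30.8 RPKM in Nrdc-/-WT, 2.0 RPKM in Nrdc-/- and 31.5 RPKM in Nrdc+/+ iMEF, and Fam43a 8.24, 2.86 and 8.35 RPKM in the same lines. Echdc2 alone of the 5 lies on chromosome 4. For Cdkn1a they were Fam20b (0.9990), 2810046L04Rik (0.9989), Tsc22d3, a glucocorticoid-induced gene (0.9986), Pcif1 (0.9981) and Uso1 (0.9980). Tsc22d3 averaged 6.16 RPKM in Nrdc-/-WT, 12.9 RPKM in Nrdc-/- and 4.39 RPKM in Nrdc+/+ iMEF. These coefficients rest on 3 lines of 2 libraries each and are a description.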

How the data were processed

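Poly(A) RNA of 6 iMEF libraries was read on the Ion Proton platform. The authors aligned reads to mm9 with STAR, then Bowtie2 in local mode, counted them per Ensembl gene with featureCounts, computed RPKM with edgeR and deposited log2 values of RPKM with a small added constant. Their versions were not given in the sources used. The design had assumed RPKM, and the log2 values were therefore turned back into RPKM after the constant (0.912 to 1.12 reads per library) was taken off. All low values then gave whole reads (100% within a tolerance of 0.05).

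The 11598 genes that averaged 0.5 RPKM or more entered limma 3.58.1 in R 4.3.3 (lmFit and eBayes with a trend, log2(RPKM + 0.25), all 6 libraries, 3 residual degrees of freedom). The code was tested on simulated data. Read ratios have exact 95% intervals. Sequences were taken from RefSeq and matched to NCBIM37. Plots were drawn with matplotlib 3.10.9 in Python 3.11.15. The members and gene lists were chosen with earlier results of these data known.

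Named genes were every member, Nrdc, every gene within 3 Mb of Cdkn2a that passed the filter, every gene of lists of 8 or fewer, otherwise the 3 most abundant and the called gene with the largest rise and fall per comparison, and the 5 genes most like Cdkn2a and Cdkn1a. From this set, those that carry each list are given. The alternatives were other pseudocounts, filters, scaling, thresholds, windows and fits, and each library left out in turn. Replicates differed by more than sampling noise (chi-square per gene of 4.02 to 8.59), and each was counted. This spread does not show whether they came from separate cultures.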

Additional observations from a re-analysis of the deposited data

How the results depend on the processing

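The members kept their directions under the 17 alternatives of the fit, except for the uncalled log2 differences of Cdkn1b (-0.02 to 0.09) and Cdkn2c (-0.03 to 0.14) in Nrdc-/-WT v.s. Nrdc-/-, and Cdkn1b and Cdkn2c kept their side of the threshold in all 3 comparisons. Cdkn2d lost its call in Nrdc-/-WT v.s. Nrdc-/- without replicate 2 of Nrdc-/- iMEF, and in both comparisons of Nrdc-/-WT iMEF with limits of 0.01 for the adjusted p and 2 for the fold. In Nrdc-/- v.s. Nrdc+/+, the fitted log2 difference of Cdkn1c ran from -7.66 with limma-voom on reads to -3.57 with a pseudocount of 1, resting on 3 reads in Nrdc-/- iMEF, and that of Mtap from -6.18 to -5.17 under the same fits.

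Of the 111 genes of the lists and families that passed the filter, 79 were called in Nrdc-/- v.s. Nrdc+/+ (62.1% over all genes), 42 in Nrdc-/-WT v.s. Nrdc-/- (43.2%) and 78 in Nrdc-/-WT v.s. Nrdc+/+ (60.4%). The 79 and 78 include Cdkn1c, which passed the filter through Nrdc+/+ iMEF alone and could only be called lower against that line. Pmaip1 and Tbx3, also among the 111 genes, passed the filter in the same way. With limits of 0.01 for the adjusted p and 2 for the fold, the counts were 31, 4 and 34 (24.9%, 11.9% and 23.3% over all genes). Without a fold minimum, 68 were called in Nrdc-/-WT v.s. Nrdc-/- (58.7% over all genes). Leaving out 1 library gave 76 to 79, 36 to 43 and 77 to 80. Of the 10 tested genes within 3 Mb of Cdkn2a, 7, 7 and 5 were called in these comparisons. At the stricter threshold 3, 3 and 1 were called (24.9%, 11.9% and 23.3% over all genes). Within 1 Mb the counts were 1, 2 and 2 of 2 tested genes, and within 10 Mb 25, 16 and 17 of 34, beside 62.1%, 43.2% and 60.4% over all genes. The 34 include Tusc1, with a log2 difference of -3.72 in both comparisons with Nrdc+/+ iMEF and 0 between the other lines. Tusc1 passed the filter through Nrdc+/+ iMEF alone and could only be called lower against that line. Without a filter, 8 genes within 3 Mb were called in Nrdc-/-WT v.s. Nrdc+/+ (43.7% over all genes). The windows hold fewer or more genes, and stricter thresholds call fewer by construction. Leaving out 1 library gave 7, 6 to 7 and 4 to 6.

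Replicate numbers did not pair the samples, since deviations of same-numbered libraries correlated at -0.03, -0.10 and 0.01 across genes. With a replicate block, 79, 43 and 78 of the genes of the lists and families and 7, 7 and 5 near genes were called. The genes of the lists and families again include Cdkn1c, Pmaip1 and Tbx3, which could only be called lower against Nrdc+/+ iMEF. Over all genes, 62.2%, 43.1% and 60.5% were called with this block.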
